A study of Mus musculus with 4 samples.

Results

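Cell cycle and DNA replication genes were followed across the 4 arrays of a mouse fat study, as a set of 36 genes. They were read by 68 probe sets, each a group of array probes that gives 1 value. Some probe sets can also read other transcripts. The genes were listed by name with earlier results of these data known: 13 genes of S phase and its licensing, 20 genes of G2 and mitosis, and 3 G1 cyclins. All 36 were found among the 13108 genes named on the arrays (22626 probe sets), 3 of them under an older symbol (Cdc2a for Cdk1, Plk for Plk1 and Stk6 for Aurka). The array RNA came from 4 groups of 1 sample each. Primary cultures of adipocytes from mouse visceral fat were treated for 2 h with DMSO as vehicle or with 10 µM forskolin, a drug that raises cAMP by acting on adenylyl cyclase. Whole epididymal fat pads came from mice on normal chow or from mice kept for 12 weeks on a 60% high fat diet. The deposited column names of the fat arrays begin with WT, which is not spelled out. Not given in the sources used here: genotype, strain, age, number of animals and any pooling. A difference between groups therefore rests on 1 array against 1, with no replicate spread, and no p-value could be had. Array values below are given in the order vehicle, forskolin, chow and high fat diet.

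A dividing cell passes through G1, copies its DNA in S phase, and separates the copies in mitosis. D cyclins with their kinases inactivate the retinoblastoma family in G1, which frees E2F factors to switch on the genes for replication. Cdc6 loads the ring of MCM proteins onto origins, PCNA clamps the polymerase to DNA, and ribonucleotide reductase and thymidylate synthase supply nucleotides. Later, cyclins A and B with Cdk1 drive entry into mitosis, where aurora and polo kinases, kinesins and the spindle checkpoint move the chromosomes. Mature adipocytes are held to divide rarely, whereas fat tissue also holds stromal, vascular and immune cells that can divide.

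The median intensity was 236.5 and 237.3 on the vehicle and forskolin arrays and 265.7 and 314.4 on the chow and high fat diet arrays. The adiponectin gene Adipoq, an adipocyte marker, was bright on all 4 arrays. Its intensities were 10261, 10449, 10456 and 9962 with vehicle, forskolin, chow and high fat diet. Some other adipocyte markers were less even. Lipe read 606.5, 646.1, 4349 and 3804, Retn 10716, 10521, 10055 and 2889, and Lep 1419, 1390, 808.3 and 5517. The cultures read low for other cell types by some markers only. The endothelial gene Pecam1 (13.54 with vehicle) and the myeloid gene Tyrobp (20.04) were below the 10th percentile of the vehicle array, 22.1, whereas the macrophage receptor gene Csf1r read 3293. The 10th percentile of each array (22.1, 22.23, 25.08 and 26.03) was used as a floor, so a fold against a value at or below it is a lower bound.

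Promoters are shown first because S phase and mitosis genes are known to be switched on through different sites. E2F factors bind E2F sites, the MuvB complexes bind the CHR site, and NF-Y binds CCAAT boxes, which often accompany CHR sites. RefSeq promoter windows (250 bases before to 50 after a start of transcription, build GRCm38.p6) were held for 30 of the 36 members, in 33 windows. Mcm4, Ccna2, Aurkb, Kif20a, Ccnd1 and Ccnd2 were not among them. The letters searched on both strands were TTGGCGC or the variant TTGCCGC or the variant TTCGCGC or the variant TTCCCGC for E2F. For CHR they were TTTGAA or the variant TTCGAA, and for NF-Y the box CCAAT. Overlapping E2F matches, as in Mcm6, were counted separately. A match is a description of letters and not a shown binding site.

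E2F letters were present in 8 of 13 S phase windows (61.5%) and 3 of 18 mitosis windows (16.7%), against 9.57% of all 32851 windows. CHR letters showed the opposite distribution, with 14 of 18 mitosis windows (77.8%) and 2 of 13 S phase windows (15.4%), against 19.2% of all. CCAAT was in 15 mitosis windows (83.3%) and 9 S phase windows (69.2%), against 37.4% of all. The median GC content was 58.8% in mitosis windows, 57.7% in S phase windows and 52.7% in all windows. The 2 windows of the G1 cyclin gene Ccnd3 held no E2F or CHR letters. Mcm7 and Prc1 have 2 windows each, and those of Prc1 overlap.

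**Figure D1:**
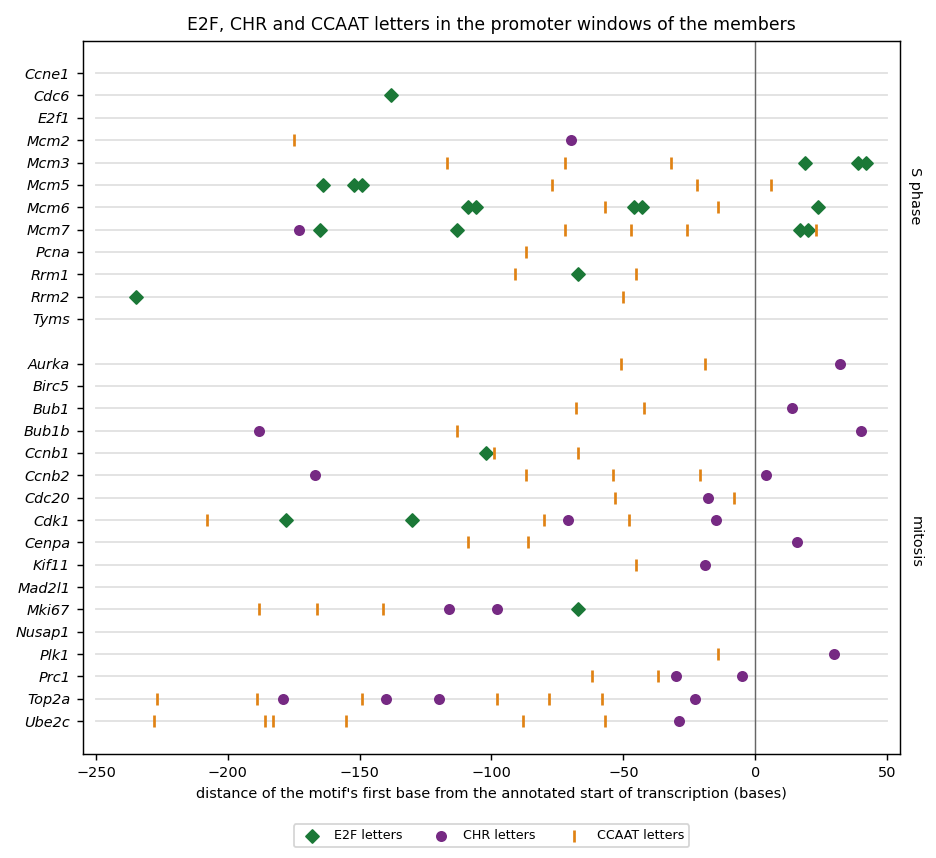
Distance in bases of each motif's first base from the annotated start of transcription (x axis) for the S phase and mitosis members with a window (y axis). Diamonds mark E2F, circles CHR and ticks CCAAT letters; Mcm7 and Prc1 show both of their starts on 1 line. Diamonds lie mostly among the S phase genes (8 of 13 windows) and circles among the mitosis genes (14 of 18).

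The 4 promoters below contrast the classes, with capitals marking E2F, CHR and CCAAT letters. Mcm5 (chr8:75109259-75109558, + strand) and Mcm6 (chr1:128359656-128359955, - strand) encode helicase subunits and hold 3 and 5 E2F matches. Ccnb2 (chr9:70421505-70421804, - strand) encodes a mitotic cyclin and holds 2 CHR and 3 CCAAT matches. Birc5 (chr11:117848987-117849286, + strand), the survivin gene, holds none of these letters in its window.
Mcm5: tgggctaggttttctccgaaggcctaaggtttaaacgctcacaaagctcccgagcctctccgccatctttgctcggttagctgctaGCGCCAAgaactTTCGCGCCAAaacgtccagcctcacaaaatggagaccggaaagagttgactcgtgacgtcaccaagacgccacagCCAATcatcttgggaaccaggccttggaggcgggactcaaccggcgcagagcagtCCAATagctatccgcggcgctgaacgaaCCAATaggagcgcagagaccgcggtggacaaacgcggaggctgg
Mcm6: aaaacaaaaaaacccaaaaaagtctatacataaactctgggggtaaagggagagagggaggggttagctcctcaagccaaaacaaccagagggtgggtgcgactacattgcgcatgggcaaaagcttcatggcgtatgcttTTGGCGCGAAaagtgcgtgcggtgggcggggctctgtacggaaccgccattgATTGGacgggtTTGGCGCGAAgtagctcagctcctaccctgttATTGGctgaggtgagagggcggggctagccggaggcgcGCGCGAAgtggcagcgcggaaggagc
Ccnb2: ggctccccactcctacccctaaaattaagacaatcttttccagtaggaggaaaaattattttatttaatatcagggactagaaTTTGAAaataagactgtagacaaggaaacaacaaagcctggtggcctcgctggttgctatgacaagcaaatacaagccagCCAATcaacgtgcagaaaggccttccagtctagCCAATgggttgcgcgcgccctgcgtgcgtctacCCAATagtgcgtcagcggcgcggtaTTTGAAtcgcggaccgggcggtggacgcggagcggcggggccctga
Birc5: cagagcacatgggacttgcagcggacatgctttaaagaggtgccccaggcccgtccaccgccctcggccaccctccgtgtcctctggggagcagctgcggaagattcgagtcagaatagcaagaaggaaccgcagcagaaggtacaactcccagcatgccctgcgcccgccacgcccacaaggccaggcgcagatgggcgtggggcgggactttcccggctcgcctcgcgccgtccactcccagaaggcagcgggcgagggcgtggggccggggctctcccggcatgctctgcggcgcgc

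A CCAAT box followed by CHR letters starting within 60 bases was found in 12 of 18 mitosis windows (66.7%) of 11 genes, 0 of 13 S phase windows and 2.1% of all windows. This spacing was chosen after the positions were seen. The distance from the first base of the box to the first base of the CHR letters ran from 9 to 56 bases. The nearest such pair of each gene is printed from box to CHR, both in capitals, to show how the letters between them differ. The ends recur because the search required them. ATTGG is CCAAT read on the other strand, and TTCAAA is TTTGAA. On the - strand lie Aurka at chr2:172370533-172370589, Bub1 at chr2:127831840-127831901, Ccnb2 at chr9:70421545-70421575, Cdc20 at chr4:118437356-118437396, Cdk1 at chr10:69352978-69352992, Mki67 at chr7:135716490-135716520, Top2a at chr11:99024324-99024338. On the + strand lie Kif11 at chr19:37376337-37376368, Plk1 at chr7:122159421-122159470, Prc1 at chr7:80294414-80294451, Ube2c at chr2:164769872-164769905. All are in GRCm38.p6.
Aurka: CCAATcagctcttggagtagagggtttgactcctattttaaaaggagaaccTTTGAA
Bub1: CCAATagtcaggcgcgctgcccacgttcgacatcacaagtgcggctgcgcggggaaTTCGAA
Ccnb2: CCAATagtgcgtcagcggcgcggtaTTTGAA
Cdc20: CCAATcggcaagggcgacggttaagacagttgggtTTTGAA
Cdk1: ATTGGctccTTTGAA
Kif11: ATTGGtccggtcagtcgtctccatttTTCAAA
Mki67: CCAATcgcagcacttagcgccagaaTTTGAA
Plk1: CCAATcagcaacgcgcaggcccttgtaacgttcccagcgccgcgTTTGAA
Prc1: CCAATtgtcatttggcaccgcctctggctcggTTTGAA
Top2a: ATTGGtttaTTCGAA
Ube2c: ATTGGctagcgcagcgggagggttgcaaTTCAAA

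The diet comparison asked which cell cycle genes differ in fat after long high fat feeding. Most replication and mitosis genes had higher values with the diet, and none of the members was 2-fold lower. Of 12 S phase members with a value on both fat arrays, 8 were 2-fold higher or more (median 2.66-fold). Of 20 mitosis members, 13 were (median 3.75-fold). Over all members this was 22 of 35, or 62.9%, whereas 12.2% of all 12939 genes on both arrays were 2-fold higher and 7.43% were 2-fold lower. By probe set the count was 40 of 67 higher and 0 lower, against 13.9% and 6.92% of all probe sets. Within 1.5-fold were 9 members and 60.7% of all genes. Of the 35 members, 23 reached the level filter (an intensity of 510.7 on the brighter array), and the counts here are over all 35, whatever their level. Among the genes that reached the filter, 16.1% were 2-fold higher and 5.53% 2-fold lower. In whole tissue, more cells of a type and more RNA per cell cannot be told apart, nor can fewer cells and less RNA per cell.

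The scaling between arrays moved both the background and the members. Higher genes were 62.1% of all 2-fold calls as deposited, 41.6% after centring each array on its median and 44.7% after quantile normalization. Under those scalings 21 members were 2-fold higher each time, with 1 and 2 members 2-fold lower, and the background for higher genes was 8.76% and 9.56%. The median log2 difference of S phase members was 1.41 as deposited, 1.16 centred and 1.25 quantile normalized. That of mitosis members was 1.91, 1.66 and 1.75. The order of these classes is not settled: it turned when a gene was given by the median of its probe sets, to 1.91 for S phase and 1.78 for mitosis.

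**Figure D2:**
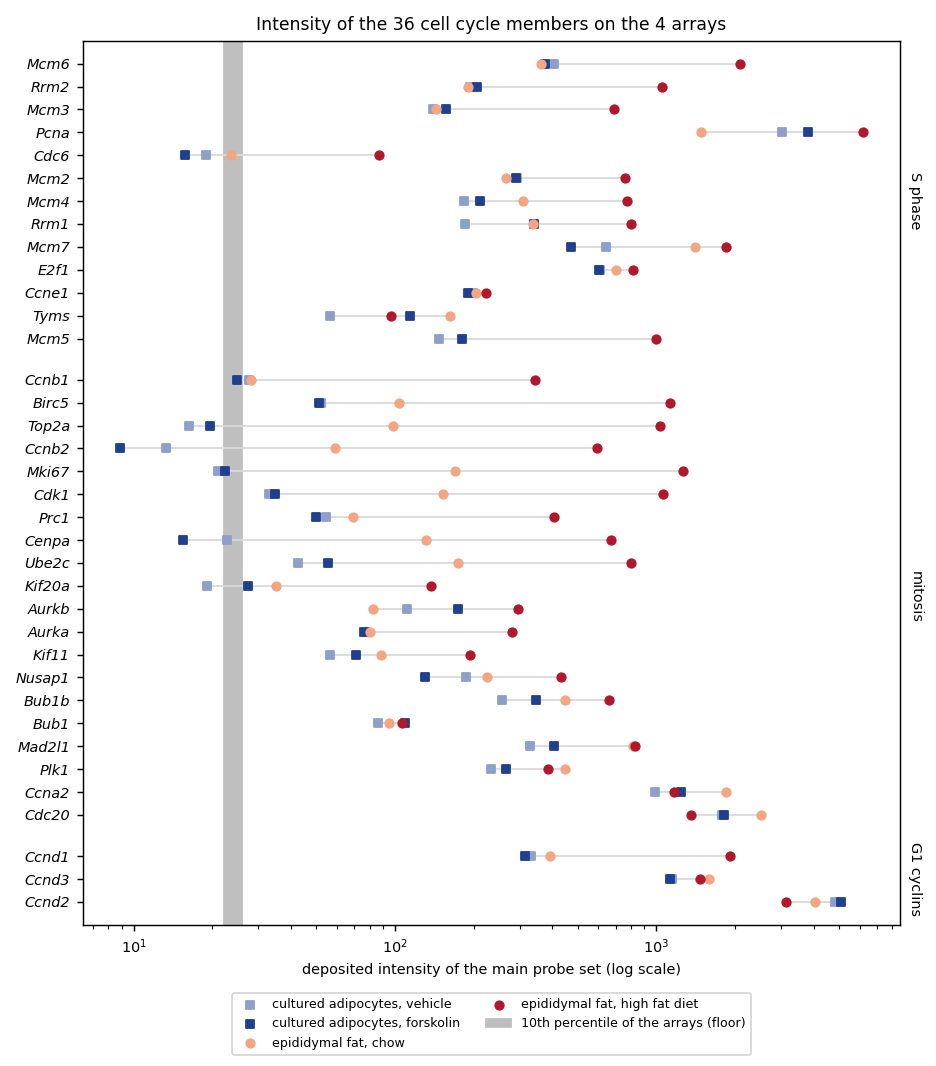
Deposited intensity of the main probe set of each member (x axis, log scale) on the 4 arrays, with genes ordered within S phase, mitosis and G1 cyclins by their diet difference. Squares are the cultures, circles the fat pads, and the grey band spans the 10th percentiles of the arrays. The high fat diet circle lies farthest right for most genes, with Tyms, Bub1, Plk1, Ccna2, Cdc20, Ccnd2 and Ccnd3 as exceptions; Mcm5 has no chow value.

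The MCM genes encode the subunits of the replicative helicase, and the main probe sets of the 5 that could be compared read higher with the diet, to different degrees. Mcm6, whose promoter with 5 E2F matches is printed above, read 406.7, 374.2, 363.9 and 2089.8. Only the last of these stood apart, at 5.74-fold above chow, and a second probe set was 2.91-fold higher. Mcm3 read 140.5, 157.4, 143.5 and 688.95, 4.80-fold higher with the diet. Of its 4 probe sets 3 were higher (log2 2.08 to 2.66) and the dimmest on the high fat diet differed by -0.18 on the log2 scale. Mcm2 read 292.7, 289.7, 267.4 and 758.5, which is 2.84-fold higher, and its other probe set was 8.37-fold higher. By the main probe sets of Mcm2, Mcm3 and Mcm6 the cultures and chow lay close together, but not by all others. The second Mcm6 probe set read 38.4, 66.15, 181.8 and 528.5, and that of Mcm2 read 154.7, 129.45, 45.34 and 379.6. Mcm4 was 2.49-fold higher (308.8 against 769.8) and 1.47-fold by its other probe set. Mcm7 was 1.32-fold higher by its brightest probe set (1405 and 1857), 1.55-fold and 2.16-fold higher by the others, and a probe set shared with other genes read 610.7 and 610.4. Mcm5 had no value on chow, so no fold is given. It read 146.9 with vehicle, 181.0 with forskolin and 1001.4 on the high fat diet.

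Genes of the replication fork and of nucleotide supply followed the same direction, except Tyms. Pcna, the sliding clamp, read 3041, 3803, 1484 and 6186. Chow was thus the lowest of the 4 arrays for Pcna, and the diet difference was 4.17-fold. Rrm2, the regulated subunit of ribonucleotide reductase, read 193.0, 206.7, 190.4 and 1048.5, a diet difference of 5.51-fold, and its other probe sets were 8.40-fold and 11.5-fold higher. Rrm1, the large subunit, was 2.38-fold higher (336.4 and 799.9), and 13.0-fold by a probe set that read 28.57 on chow, close to that array's floor. Tyms, which encodes thymidylate synthase, was dim and lower on the high fat diet (162.05 on chow and 96.95), a difference of 1.67-fold. Its other probe sets differed by -0.34 and 0.19 on the log2 scale, and a brighter one shared with a pseudogene read 1013 and 731.9. Tyms was the only S phase member below chow by its main probe set.

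The regulators that open S phase differed less or were dim. Cdc6, the origin licensing factor, was at or below the floor on 3 arrays (19.01, 15.69 and 23.62) and read 86.93 on the high fat diet, at least 3.47-fold higher. With the floor raised to the 25th percentile of each array its log2 difference dropped to 0.27. E2f1, the E2F factor that activates many of these genes, was 1.17-fold higher by its bright probe set (699.4 and 814.8) and 2.39-fold by the dim one (100.1 and 239.2). Ccne1, the cyclin of the G1 to S transition, was 1.09-fold higher (204.5 and 223.6).

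Among the mitosis genes the largest diet differences, with the 10th percentile floor, were those of cyclin B genes, survivin and topoisomerase. Ccnb1, the partner of Cdk1, read 27.76, 24.9, 28.14 and 343.0, 12.2-fold above chow. Only the high fat diet array lay far above the floor for this gene, and with the floor at the 25th percentile its log2 difference was 2.25 in place of 3.61, below those of Mki67 (2.90) and Cdk1 (2.80). Other probe sets also read Ccnb1 together with other genes, and they did not agree: 1 was 11.0-fold higher (33.83 and 372.3), the brightest was 1.06-fold lower (362.5 and 342.2), and the third was at least 1.28-fold lower at values near the floor. Ccnb2, whose promoter is printed above, read 13.36, 8.87, 59.08 and 594.9, below the floor in both cultures. Birc5, which encodes the chromosomal passenger survivin, read 52.26, 51.16, 103.7 and 1132. The diet difference was 10.1-fold for Ccnb2 and 10.9-fold for Birc5. Top2a, which untangles DNA strands, read 16.28, 19.54, 97.92 and 1037, or 10.6-fold higher. Its other probe set was dim on both fat arrays (43.57 and 16.78) and at least 1.67-fold lower, so the median over its probe sets was log2 1.33. Mki67, the proliferation marker Ki-67, read 21.12, 22.3, 169.25 and 1262, a diet difference of 7.46-fold. Both cultures lay near the floor, chow was above them, and the high fat diet was above chow. Cdk1, the kinase of mitotic entry, showed the same order with 33.04, 34.7, 152.9 and 1061, or 6.94-fold.

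Spindle, centromere and ubiquitin ligase genes were higher by smaller folds. Prc1, which bundles microtubules between the separating chromosomes, was 5.88-fold higher (chow 69.21, high fat diet 406.9), and at least 7.15-fold by a second probe set. Cenpa, the histone of the centromere, was 5.10-fold higher (132.0 and 673.6). Ube2c, which serves the anaphase-promoting complex, was 4.60-fold higher (174.3 and 802.5). All 3 genes were lowest in the cultures. The kinesin gene Kif20a was 3.94-fold higher at low values (34.96 and 137.8), and log2 0.93 with the higher floor. The aurora kinase genes Aurkb and Aurka were 3.56-fold (82.67 and 294.7) and 3.50-fold higher (80.26 and 280.8). Kif11, the kinesin that separates spindle poles, was 2.20-fold higher, and 1.87-fold and 3.63-fold by its other probe sets. It dropped below 2-fold after centring and after quantile normalization, with log2 differences of 0.89 and 0.96. Nusap1, a spindle-associated protein, was 1.93-fold higher (225.25 and 433.8), just under the threshold, and its other probe set differed by -0.18 on the log2 scale.

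The spindle checkpoint and 3 regulators did not show this difference by their main probe sets. The checkpoint genes Bub1b, Bub1 and Mad2l1 were 1.47-fold, 1.12-fold and 1.02-fold higher. Bub1 had a dim second probe set that was at least 6.30-fold higher, from below the floor (7.98) to 158. Plk1, the polo kinase, was 1.16-fold lower (448.35 and 387). Ccna2, the cyclin A gene, was 1.58-fold lower by a bright probe set (1853 and 1174) and 4.98-fold higher by a dimmer one (165.8 and 826.2). Cdc20, which activates the anaphase-promoting complex, was 1.85-fold lower by its brightest probe set (2526 and 1365) but 2.02-fold and 1.91-fold higher by the others (355.97 and 719.2, and 212.8 and 405.9). For Ccna2 and Cdc20 the direction therefore depended on the probe set. The brightest Cdc20 probe set, like one of the others, carries the _x_at suffix, which marks probes that can read other transcripts. The main probe sets of Rrm2 and Aurkb, both higher with the diet, carry this suffix too.

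Across the 19 members with several probe sets, the gap between the highest and the lowest log2 diet difference had a median of 1.12, against 0.68 over 5048 such genes. Probe sets pointed at least 1.5-fold both ways for 3 members, namely Top2a, Ccna2 and Cdc20. The authors' deposited table gives each fold with bounds of unstated confidence, which cannot hold variation between mice. There, the lower bound of an increase exceeded 1 for 21 of 26 S phase and 23 of 30 mitosis probe sets, against 39.5% of all. A decrease was bounded away from 1 for 1 and 3 of them, against 28.8% of all.

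**Figure D3:**
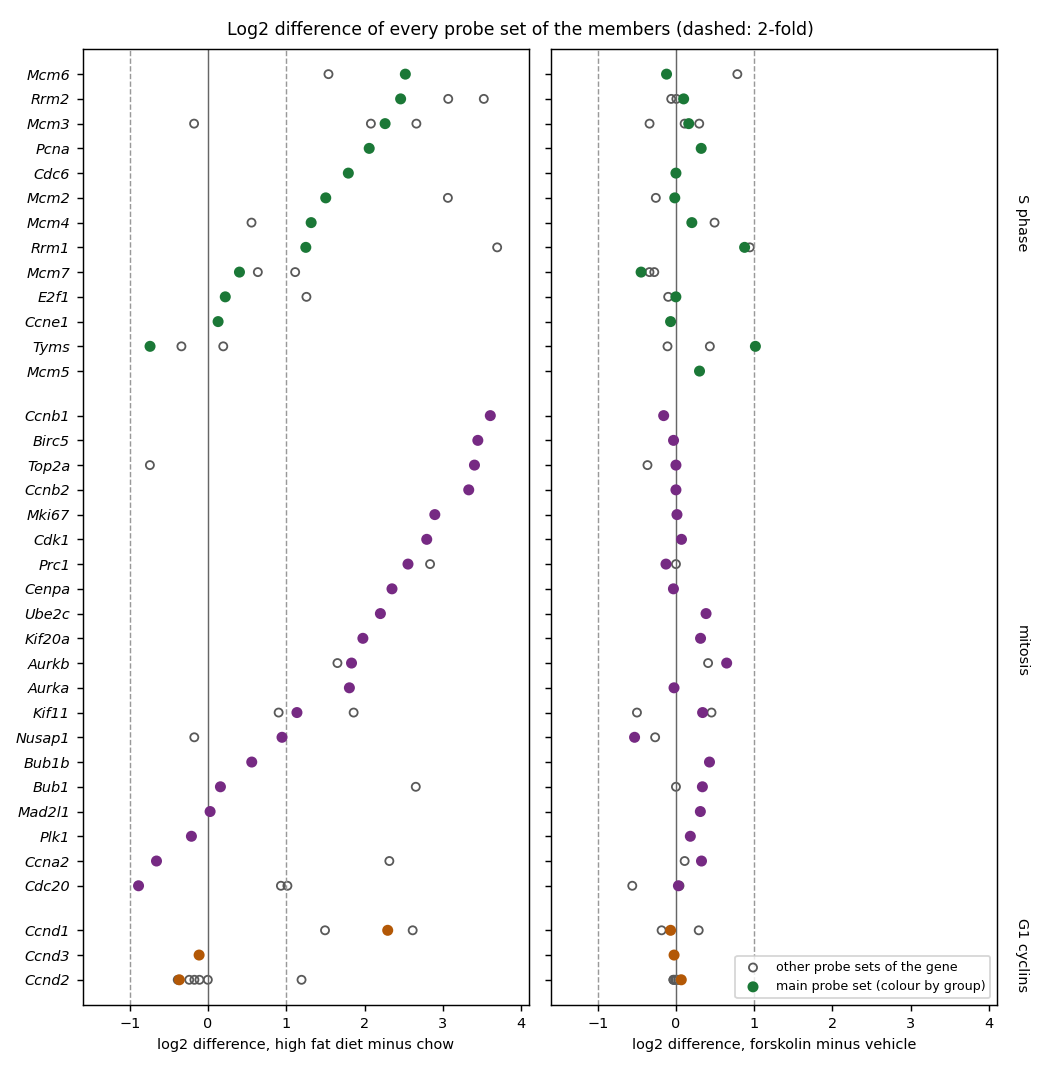
Log2 difference of every probe set of each member for the diet (left, high fat diet minus chow) and for forskolin (right, forskolin minus vehicle). Filled points are main probe sets, coloured by group, open points the others, and dashed lines mark 2-fold. On the left 40 of 67 probe sets lie at or beyond 2-fold to the right and 0 to the left, and on the right 1 of 68 does.

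The D cyclins, which couple growth signals to G1, differed from each other. Ccnd1 read 331.0, 315.6, 390.9 and 1920.3, 4.91-fold above chow. Its other probe sets were 2.82-fold and 6.13-fold higher, so all 3 pointed the same way. Ccnd2 read 4850, 5085, 4041 and 3133, bright in every sample and 1.29-fold lower with the diet. Of its 7 probe sets 6 were within 1.5-fold, and the exception read 9.22 on chow, below the floor. Ccnd3 read 1147, 1128, 1596 and 1475, or 1.08-fold lower.

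Other genes of the same processes, outside the 36, were counted in the same way for the diet, where 12.2% of all genes were 2-fold higher and 7.43% lower. Each is given by its main probe set only, although some, such as Cdt1 with 3 probe sets, have others. Of 30 further replication genes, 14 were at least 2-fold higher and 0 lower (median log2 difference 0.94, against 0.01 for all genes). The polymerase subunit gene Pole2 was 5.37-fold higher (chow 35.27, high fat diet 189.4), the licensing factor gene Cdt1 5.04-fold (241.05 and 1216) and the thymidine kinase gene Tk1 4.57-fold (190.75 and 871.9). Of 34 further mitosis genes, 13 were 2-fold higher and 0 lower (median 0.79). The condensin gene Ncapg was 8.72-fold higher (25.82 and 225.3), the cytokinesis gene Ect2 at least 8.15-fold (24.38 and 204.3) and the kinetochore gene Nuf2 6.97-fold (30.33 and 211.3). Of 11 G1 kinase, E2F and pocket protein genes, 2 were 2-fold higher: Rbl1, a retinoblastoma relative, by 3.12-fold, and E2f4 by 2.28-fold, with Cdk6 next at 1.78-fold; this share, 18.2%, lay near that of all genes. Among 7 CDK inhibitor genes none was 2-fold higher and 2 were 2-fold lower. Cdkn1c, the p57 inhibitor, was 2.33-fold lower (1085 and 465.4) and Cdkn2d, the p19 inhibitor, 2.00-fold lower (1955 and 977.15), right at the threshold. The third by size, Cdkn1b, was at least 1.27-fold higher at values near the floor (21.16 and 31.81).

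**Figure D4:**
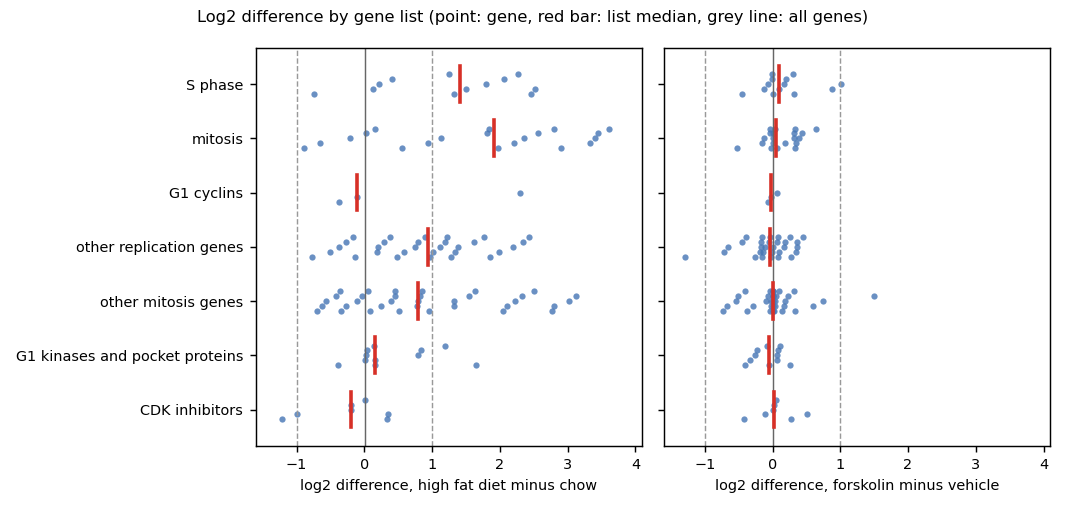
Log2 difference of each gene in 7 cell cycle lists (rows) for the diet (left) and for forskolin (right). Points are genes, red bars list medians, the grey line the median of all genes and dashed lines 2-fold. With the diet the S phase and mitosis medians lie at 1.41 and 1.91 and the CDK inhibitor median at -0.19, while with forskolin all 7 medians lie within 0.10 of 0.

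Markers of immune cells moved with the diet result, and their counts can be read against the same 12.2% of all genes higher and 7.43% lower. Of 13 macrophage markers 11 were 2-fold higher, and their summed intensity was 16258 with chow against 74779 with the high fat diet. The T cell sum was 958.9 over 8 values and 5474 over 7 (4 of 6 markers higher, 1 lower), the B cell sum 1230 and 11605 (5 of 6 higher), and the mast cell sum 833.9 and 4426 (4 of 6 higher). The T cell sums cover different genes, since of the fat arrays Cd2 had a value only with the high fat diet and Cd3d and Cd3g only with chow. Il7r alone read 91.56 and 2726. Most of the B cell sum was Ighm, at 789.7 with chow and 9691 with the high fat diet. No defining marker with a value was at 0 on either fat array, and the T cell markers Cd3d and Cd3g had no value with the high fat diet. The adipocyte sum was 72238 and 60683, with 1 of 9 markers 2-fold higher and 2 lower. Endothelial markers summed to 10337 and 8120 (0 of 6 higher or lower), fibroblast and preadipocyte markers to 23699 and 32463 (2 of 7 higher), and mesothelial markers to 1795 and 880.6 (1 of 3 lower). The part of these cell types in the cell cycle difference was not tested.

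The forskolin comparison asked which genes of cultured adipocytes respond to raised cAMP within 2 h. Most cell cycle genes read nearly the same with and without forskolin. Of 36 members 1 was at least 2-fold higher, 0 were 2-fold lower and 33 lay within 1.5-fold. The same shares over all 13051 genes were 1.93%, 1.09% and 90.0%, so the members lay near the background. Only 12 of the 36 reached the level filter of 330.2, at which 1.23% of genes were 2-fold higher and 0.138% lower, and 4 of the 20 mitosis members were at or below the floor with vehicle and 3 with forskolin. The main probe sets of Cdc6, Top2a and Ccnb2 were at or below the floor in both cultures and gave no difference. The second Top2a probe set read 37.99 and 29.52, or 1.29-fold lower. The median log2 difference was 0.10 for S phase and 0.05 for mitosis members.

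The 3 members beyond 1.5-fold by main probe set were all higher with forskolin. A second Mcm6 probe set was also 1.72-fold higher at low values (38.4 and 66.15), while the main one was 1.09-fold lower. Tyms read 56.46 with vehicle and 114.1 with forskolin, or 2.02-fold. Its other probe sets differed by at least 0.43 (vehicle at the floor) and by -0.11 on the log2 scale, and the brighter one shared with the pseudogene was 1.03-fold higher. Rrm1 was 1.84-fold higher (184.7 and 339.4), and its second probe set was 1.92-fold higher (132.2 and 254.2). The authors' deposited table bounds the first Rrm1 fold by 1.34 and 2.61. Aurkb was 1.57-fold higher (111.5 and 174.8), and 1.33-fold by its other probe set. By main probe set the largest decreases were smaller: Nusap1 was 1.44-fold lower (187.9 and 130.3) and Mcm7 1.36-fold lower (645.2 and 473.9), with all 3 Mcm7 probe sets lower.

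In the wider lists, 2 genes passed 2-fold with forskolin, near the 1.93% higher and 1.09% lower of all genes. Of 30 further replication genes 0 were 2-fold higher and 1 lower, with Orc1, an origin recognition subunit, at least 2.45-fold lower (54.55 and 19.28). The next by size were Rpa2 and Pole2, at -0.71 and -0.65. Of 34 further mitosis genes 1 was 2-fold higher, Racgap1, a regulator of cytokinesis (64.57 and 181.8, or 2.82-fold), followed by Kif23 at 0.75 or more and Cenpf at -0.74. Racgap1 and Kif23 have 2 and 3 probe sets, of which only the main one is given. Of 11 G1 genes none passed 2-fold, with E2f6, Cdk4 and Rbl2 at -0.40, -0.33 and 0.26. None of 7 CDK inhibitor genes did either, with Cdkn1a, the p21 inhibitor, 1.42-fold higher (3171 and 4494), Cdkn2b at -0.42 and Cdkn1b at 0.27 or more on the log2 scale. Summed marker intensities were close on the culture arrays: 5654 and 5968 for macrophages, 59345 and 60217 for adipocytes and 953.3 and 789.55 for T cells, of whose 9 markers 1 was 2-fold lower with forskolin. The sums were 2311 and 2283 for B cells, 299.45 and 272.9 for mast cells, 3032 and 3228 for fibroblasts, 439.5 and 473.4 for endothelial and 112.4 and 124.8 for mesothelial cells. Ighm alone gave 2081 and 2062 of the B cell sums. In the authors' deposited table, 3 members (8.33%) carried the promoter class written as CRE_TATA, whose definition the table does not give, namely Mcm7, Rrm1 and Ccnd2, against 8.29% of all genes. Rrm1 was 1.84-fold higher with forskolin, while Mcm7 was lower and Ccnd2 1.05-fold higher. In the authors' deposited table, CRE_NoTATA stood for 5 members (13.9%), namely Mcm2, Pcna, Cdc6, E2f1 and Ccna2, against 13.3% of all genes, and stood doubled for Ccnd1 (2.78% against 0.404%). None of these 6 was 1.5-fold apart with forskolin by its main probe set.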

How the data were processed

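Per the labels' protocols, RNA was extracted with Trizol, purified on a column, labelled with biotin and processed by Affymetrix protocols. The authors deposited an intensity per probe set on a linear scale. Not given in the sources used here: software, background correction and normalization. Per the file headers, the authors also deposited signed fold changes with bounds, handled here as scores. Both deposited tables held the same intensities (90504 of 90504 cells equal).

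Here, probe sets were named by gene ID through RefSeq (20834), symbol (42), synonym (183) or the table's own symbol (316). A further 482 read several genes and 769 had no name. Intensities were floored at the array's 10th percentile before log2, and a pair with both values at the floor got a difference of 0. For a gene, the probe set with the most values was used, then that with the highest mean log2 level. Groups held 1 array, so no test was run. Calls are 2-fold. The named genes were all 36 members and the 3 largest differences of each further list. Members and lists were chosen with earlier results of these data known. Alternatives were centring, quantile normalization, 16 added before log2, a 25th percentile floor, the median over probe sets, shared probe sets left out, a level filter, the authors' folds, and 1.5-fold or 3-fold thresholds. The steps were tested on simulated data with changes planted only in bright genes, so the recovery of changes in dim genes was not tested. Python 3.11.15, NumPy 2.4.6, pandas 2.3.3 and matplotlib 3.10.9 were used.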

Additional observations from a re-analysis of the deposited data

How the results depend on the processing

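The count of 22 members higher with the diet ran from 15 (of 23 above the level filter) to 23 under the alternatives, and 18 of the 22 stayed at or above 2-fold in all alternatives run for single genes. The exceptions were Mcm4 (0.94 with the median over probe sets), Kif11, Cdc6 and Kif20a. Members 2-fold lower with the diet numbered 0 as reported, 1 after centring (Cdc20, -1.14), 2 after quantile normalization (Cdc20, -1.25, and Ccna2, -1.01) and 3 at 1.5-fold. Bub1 passed 2-fold with the median over probe sets (1.41) and Mcm7 with shared probe sets left out (1.11). For forskolin the count of 1 higher, Tyms, became 0 with 16 added before log2, with the 25th percentile floor, with the median over probe sets, above the level filter and at 3-fold, and 3 at 1.5-fold. Above the level filter the mitosis median with forskolin was 0.32, over 4 genes. No value changed sign past 2-fold under any alternative run. Medians counted as moved when they shifted by more than the median gap between probe sets of a gene (0.68 for the diet and 0.26 for forskolin). By this rule the mitosis median with forskolin moved above the level filter, from 0.05 to 0.32. Centring shifted the median of all genes with the diet from 0.01 to -0.14. No paired analysis was possible because each group held 1 array.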

Other observations

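Among S phase members with a promoter window and a diet difference, the 6 with E2F letters had a median log2 difference of 2.03 (5 of 6 at least 2-fold higher). The 5 without them had a median of 0.22 (2 of 5), from -0.74 for Tyms to 2.06 for Pcna. The 13 mitosis members with CHR letters had a median of 2.20 (9 at least 2-fold higher) and the 4 without 2.20 (2 of 4). These splits were made after the differences were seen and are descriptions only.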
